A study of Mus musculus with 4 samples.

Results

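The peaks described here are those of peak-dense domains, stretches of the mouse genome in which accessible sites lie unusually close together. A member is an autosomal peak of the Sun1_WT accessibility library that has 20 or more other peaks of that library within 50 kb of its midpoint, with the stretches of chromosome 15 from 78000 to 86000 kb and of chromosome 17 from 33500 to 38000 kb left out. By this rule 6061 of 127147 peaks were members, and 116362 other peaks served for comparison. The samples were tumours of CT26, a line derived from a BALB/c colon carcinoma, grown under the skin of mice of that strain and taken on day 14. The injected cells had the genotype Wildtype (Sun1_WT) or Sun1_KO, and the host mice were not described as edited. Each genotype gave 1 expression and 1 accessibility library from the same nuclei. The labels do not say how the knockout was made, whether the line was 1 clone or how many tumours were pooled. With 1 library per genotype there was no replicate and no test, so every interval below is a 95% interval for counting error only and counts past 1.5-fold are counts by size.

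Sun1 encodes an inner nuclear membrane protein of the LINC complex, which couples the nuclear lamina to the cytoskeleton. Accessible chromatin is found with a transposase that inserts preferentially where nucleosomes are absent, so a peak marks a promoter, an enhancer or another open site. Clusters of such sites occur in gene-rich chromatin and around strongly regulated genes, where several enhancers can serve the same promoter, while chromatin bound to the lamina is usually gene-poor and closed.

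Members at gene starts are shown first, since the reference table holds sequence next to these members. Most members lay elsewhere. The sequences are the 250 bases before a gene start from RefSeq (GRCm38.p6, the same primary assembly as the mm10 peaks), 5′ to 3′ on the gene's strand. Capitals mark 2 motifs searched on both strands, the GC box (GGGCGG) and the CCAAT box (CCAAT), and overlapping matches are joined.
Gpx4 (chr10:80053315-80053564, + strand): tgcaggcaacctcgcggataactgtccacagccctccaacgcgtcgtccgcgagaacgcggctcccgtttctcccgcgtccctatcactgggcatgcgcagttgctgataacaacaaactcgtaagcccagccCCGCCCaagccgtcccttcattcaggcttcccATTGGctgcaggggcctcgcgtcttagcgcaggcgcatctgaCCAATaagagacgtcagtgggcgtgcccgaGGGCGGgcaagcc
Birc5 (chr11:117848987-117849236, + strand): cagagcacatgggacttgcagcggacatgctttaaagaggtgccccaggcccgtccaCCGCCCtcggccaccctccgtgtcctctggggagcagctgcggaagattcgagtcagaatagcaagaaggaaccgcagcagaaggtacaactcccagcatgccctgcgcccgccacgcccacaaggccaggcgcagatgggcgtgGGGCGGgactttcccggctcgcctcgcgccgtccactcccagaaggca
Cebpb (chr2:167688665-167688914, + strand): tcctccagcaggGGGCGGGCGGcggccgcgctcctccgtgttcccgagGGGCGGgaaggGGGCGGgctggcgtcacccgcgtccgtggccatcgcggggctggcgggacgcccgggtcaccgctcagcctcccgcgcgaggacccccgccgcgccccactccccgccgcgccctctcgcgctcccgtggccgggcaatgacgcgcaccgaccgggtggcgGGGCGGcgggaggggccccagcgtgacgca
Lmna (chr3:88493313-88493562, - strand): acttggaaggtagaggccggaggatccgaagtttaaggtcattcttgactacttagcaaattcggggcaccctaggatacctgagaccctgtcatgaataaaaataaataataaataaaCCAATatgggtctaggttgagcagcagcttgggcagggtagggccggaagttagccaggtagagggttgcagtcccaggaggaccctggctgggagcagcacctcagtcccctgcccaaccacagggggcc

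These starts belong to the lipid peroxidase gene Gpx4, the survivin gene Birc5, the inflammatory transcription factor gene Cebpb and the lamin A and C gene Lmna. The Cebpb stretch held 41 CpG dinucleotides and 5 GC boxes, the Gpx4 stretch 24 CpG and 2 GC boxes, the Birc5 stretch 19 CpG and 2 GC boxes, and the Lmna start shown only 4 CpG and no GC box. That Lmna start lies inside the gene (chr3:88481148-88509932, - strand). Its peak, chr3:88492402-88493331, reached only the last bases of the printed stretch. Over all 583 such stretches that touched a member peak, the median was 13 CpG and 59.2% G or C, beside 16 CpG and 60.0% under other autosomal peaks and 6 CpG and 52.4% over all 30868. GC boxes were present in 52.8% of the stretches under members, in 57.2% of those under other peaks and in 32.9% of all. AP-1 sites (TGANTCA) were present in 5.83% of the stretches under members and 6.77% of all, and the PU.1 site (GAGGAAGT) in 3.95% and 2.47%. The gene starts of the domains were thus close to those of other open promoters in base composition.

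The peaks over these starts were about equally open in both libraries. In tumour-gated nuclei, defined below, the Cebpb start peak had 71.7 CPM (counts per 1000000 counts in shared autosomal regions of the gate) in Sun1_WT, and 67.8 CPM in Sun1_KO, and was open in 84.6% and 83.8% of nuclei. The Gpx4 start peak stood at 50.8 and 46.1 CPM, the Birc5 peak at 42.0 and 41.4 CPM, and the Lmna peak at 86.4 and 94.4 CPM. All 4 pairs differed by less than 1.5-fold. In myeloid-gated nuclei the Cebpb peak was at 105 and 115 CPM and the Lmna peak at 76.8 and 76.9 CPM.

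Most members were not gene starts. A gene start lay under 8.08% of members and 8.5% of other peaks, and median widths were 866 and 879 bp. Members were more open than other peaks: the median member had 934 counts in the tumour-gated nuclei of Sun1_WT and was open in 20.1% of them, against 405 counts and 9.46% for other peaks. That gap came from peaks away from gene starts, with medians of 830 counts among members and 363 among others, whereas gene-start peaks had 4671.5 and 4861.5. Joined where midpoints lay at most 50 kb apart, the members formed 529 domains covering 24.6 Mb. A domain held a median of 8 members and at most 93, and 341 domains had 5 or more. Of coding genes on the autosomes considered, 4.40% overlapped a domain, and these had a median of 20.7 RNA CPM in Sun1_WT tumour-gated nuclei against 3.07 CPM for other coding genes.

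Nuclei were gated by RNA of the same barcode. Tumour-gated nuclei carried the oncofetal chromatin gene Hmga2 and few leukocyte UMIs (counted RNA molecules), and myeloid-gated nuclei carried several macrophage and monocyte markers. The tumour gate held 2051 Sun1_WT and 1040 Sun1_KO nuclei and the myeloid gate 289 and 269, with median accessibility counts of 76373 and 91004 in the former and 25516 and 25600 in the latter. The summed myeloid markers, all 15 of them detected in every gate, stood at 75.9 and 98.4 CPM of all UMIs in tumour-gated nuclei beside 16247 and 11143 CPM in myeloid-gated nuclei. The summed tumour markers stood at 2880 and 4176 CPM in tumour-gated and at 76.6 and 71.6 CPM in myeloid-gated nuclei. Fibroblast markers were at 482 and 268 CPM in tumour-gated nuclei, and endothelial markers at 2.26 and 2.92 CPM, with Cdh5 at 0 in Sun1_WT. The part of these differences in the results below was not tested. Mitochondrial UMIs made up 6.95% and 11.2% in tumour-gated and 5.61% and 9.06% in myeloid-gated nuclei. In tumour-gated nuclei Sun1 RNA went from 97.6 to 53.9 CPM between the libraries, and in myeloid-gated nuclei from 34.0 to 28.9 CPM. The sources used here do not give the part of Sun1 that was removed, so these counts do not by themselves check the knockout. The libraries shared 12 barcodes.

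In tumour nuclei the members were, as a group, slightly less open in Sun1_KO. Of 6061 members, 5543 (91.5%) overlapped a Sun1_KO peak, against 89.6% of other peaks, and they formed 5533 shared regions. In the 5511 regions with 50 or more counts, the median log2 ratio of Sun1_KO over Sun1_WT was -0.04, beside 0.02 in 102806 other regions. A ratio above 0 was found in 41.7% of member and 54.1% of other regions. Of the member regions, 138 (2.50%) were at least 1.5-fold higher in Sun1_KO, where the share over all compared regions was 7.64%, and 327 (5.93%) were at least 1.5-fold lower, beside 5.35% over all. The members' ratios were also less spread, with an interquartile range of 0.30 against 0.38. The share past 1.5-fold higher was therefore below the background, and the share past 1.5-fold lower was close to it, over all levels of openness together.

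The median ratio was lower the denser the peaks, up to 29 neighbours. Regions with 0 to 4 neighbours had a median of 0.10, those with 5 to 9 a median of 0.04, those with 10 to 14 a median of 0.01 and those with 15 to 19 a median of -0.02. Members with 20 to 24 neighbours were at -0.04 and those with 25 to 29 also at -0.04. At the border of the rule nothing jumped: peaks with 19 neighbours had a median of -0.03 and peaks with 20 a median of -0.03. Members with 30 or more neighbours were at 0.05, but 71 of these 108 peaks lay in 1 stretch of chromosome 8 described below. Counting neighbours among the Sun1_KO peaks gave 0.08 at 0 to 4, -0.03 at 20 to 24 and -0.04 at 25 to 29 neighbours. In myeloid-gated nuclei every bin below 30 neighbours had a median between -0.0045 and 0.015, so the order by density was seen in tumour-gated nuclei and not in myeloid-gated ones, though the difference between the gates was not tested.

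**Figure D1:**
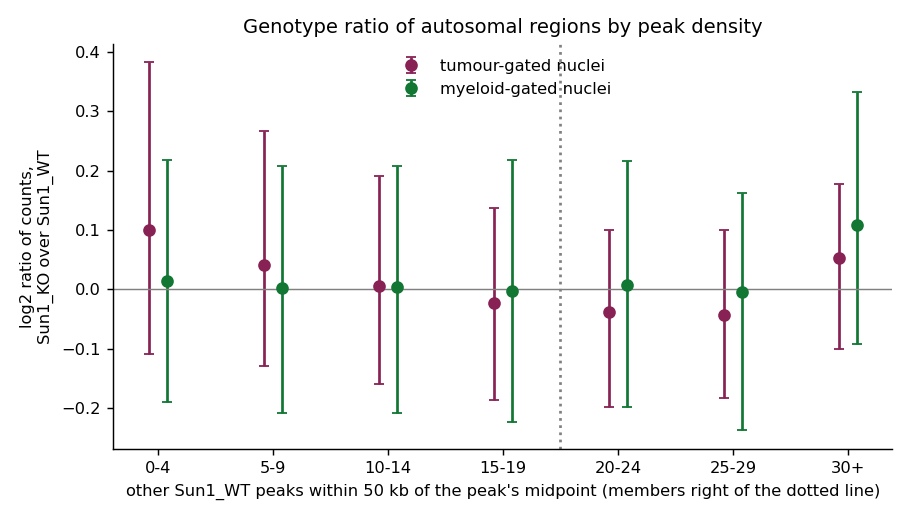
Log2 ratio of accessibility counts (vertical axis) for autosomal regions grouped by the number of other Sun1_WT peaks within 50 kb (horizontal axis), in tumour-gated and myeloid-gated nuclei; points are medians over regions and bars reach from the lower to the upper quartile of regions, not an error over replicates. The tumour medians go from 0.10 at 0 to 4 neighbours to -0.04 at 25 to 29, well inside the spread of the regions. The myeloid medians, over fewer regions, stay near 0 up to 29 neighbours.

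The same direction was seen on nearly every chromosome. Members had a lower median than the other regions of their chromosome on 18 of 19 autosomes in tumour-gated nuclei, with the largest gaps on chromosomes 15 (-0.08 against 0.04) and 13 (-0.07 against 0.04). The exception was chromosome 3, where members were at 0.13 and others at 0.11. In myeloid-gated nuclei members were above the others on 10 chromosomes and below on 9. The gap was present at each level of openness but was smaller among strong regions. At 2 to 5 CPM, members were at -0.08 and others at 0.05. The share at least 1.5-fold lower was above that of other regions in each of the 5 levels, such as 11.1% against 6.93% at 2 to 5 CPM and 1.54% against 1.0% at 10 to 30 CPM. At 10 to 30 CPM the medians were at -0.03 and 0.00, and at 30 CPM and above at -0.03 and -0.02. Gene-start members were at -0.03 and the other members at -0.04, beside -0.01 and 0.03 for the corresponding regions outside the domains. Median accessibility counts per nucleus were higher in Sun1_KO tumour-gated nuclei, as given above, and the part of depth in these shifts was not tested.

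Counted nucleus by nucleus, tumour-gated nuclei had a median of 7.11% of their shared-region counts in member regions in Sun1_WT and 6.89% in Sun1_KO. The middle 90% of nuclei ran from 6.58 to 7.99% and from 6.41 to 7.72%, so the 2 distributions overlapped over most of their range. Myeloid-gated nuclei were at 7.03 and 7.04%.

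**Figure D2:**
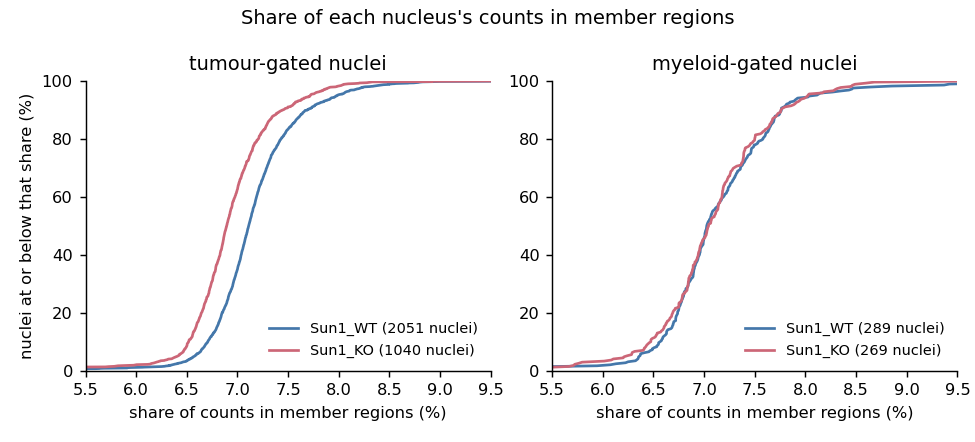
Cumulative distribution over nuclei (vertical axis, percent of nuclei) of the share of a nucleus's accessibility counts that fell in member regions (horizontal axis, percent), by gate and library; nuclei of 1 library are not replicates of a genotype. The Sun1_KO curve lies to the left of the Sun1_WT curve in tumour-gated nuclei (medians 6.89 and 7.11%), and the curves overlie each other in myeloid-gated nuclei.

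Nearly all whole domains lay within 1.5-fold of each other in the 2 libraries. Each domain was summed over all peaks between its ends in each library's own peak list and set beside its flanks, the shared regions of no member within 1 Mb on either side. Of 341 domains with 5 or more members, 334 lay within 1.5-fold in tumour-gated nuclei, 6 were lower and 1 was higher. None of their flanks passed 1.5-fold in either direction (0% of 341, in both gates). Flanks can sum more regions than their domain, such as 69 beside 17 member regions for the domain of Ccl2, so these are not sums of like size. The median domain was at -0.06 and the median flank at -0.01, and 241 domains were below and 100 above their own flanks. The domains were chosen by Sun1_WT peaks and include peaks found in only 1 library, whereas flanks hold shared regions only. The 2 sums are thus not chosen alike. By shared regions alone, 113 of 341 were above their flanks, and the median difference from the flanks was -0.03 instead of -0.04. The Sun1_KO peak list taken by itself gave 7531 dense peaks in 629 domains. Of the Sun1_WT domains, 80.5% overlapped one of these, and 67.2% of the Sun1_KO domains overlapped a Sun1_WT domain.

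**Figure D3:**
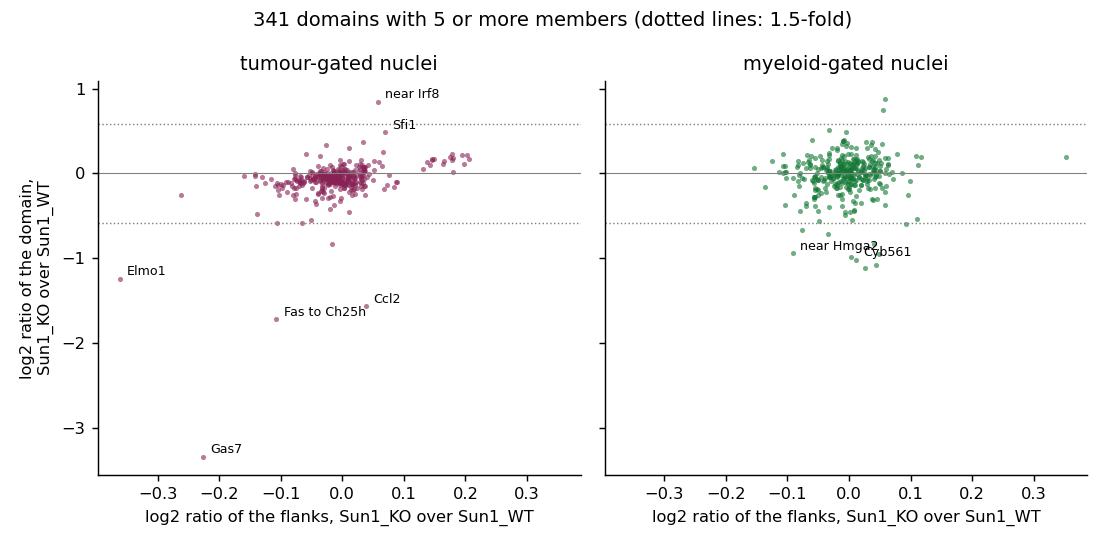
Each point is a domain with 5 or more members; the horizontal axis is the log2 ratio of its flanks and the vertical axis that of the domain, Sun1_KO over Sun1_WT, in tumour-gated (left) and myeloid-gated nuclei (right), and dotted lines mark 1.5-fold. Most points lie between the dotted lines, while the domains in Gas7 (-3.35) and around Ccl2 (-1.57) are far below them in tumour-gated nuclei only.

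The domains with most members stayed nearly the same. The largest, with 93 members on chr8:70502823-70854512, holds the AP-1 subunit gene Jund, the RNA-processing gene Lsm4 and the lysosomal thiol reductase gene Ifi30. Tumour-gated nuclei had 1742 and 1719 CPM there (log2 ratio -0.02, -0.03 to -0.01), and its member regions ran from -0.96 to 0.63. The second, with 81 members on chr2:167546639-167974316, holds Cebpb and the tyrosine phosphatase gene Ptpn1 and was at 1537 and 1435 CPM (-0.10, -0.11 to -0.09). The domain of the cytokine-signalling inhibitor gene Socs3, the thymidine kinase gene Tk1 and Birc5 on chr11:117783167-118004349, with 63 members, was at 782 and 748 CPM (-0.07, -0.08 to -0.05). The domain of Gpx4 and the ATP synthase subunit gene Atp5d on chr10:79950338-80180086, with 57 members, was at 1254 and 1114 CPM (-0.17, -0.19 to -0.16), but at -0.04 by shared regions alone. Large sums make these intervals narrow, and how far 2 libraries of the same genotype would differ is not known. In myeloid-gated nuclei the same 4 domains lay between -0.05 and 0.05.

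One stretch of chromosome 8, from 19500 to 21000 kb, held 159 members in 4 domains, among them the third-largest domain (69 members, chr8:20257716-20437517). It has up to 40 neighbours per peak but few coding genes: of 36 annotated genes 9 are coding and 22 are pseudogenes. Its member regions were weak, with a median of 1.04 and 0.916 CPM in tumour-gated nuclei, where the median compared member had 7.07 and 6.68 CPM. The largest domain of the stretch was at 406 and 413 CPM (0.03, 0.00 to 0.05), and the neighbouring domain on chr8:19702833-19735527 at 92.6 and 119 CPM (0.37, 0.32 to 0.42). Near-identical copies can share reads, so values in this stretch are uncertain.

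The lowest domain lay inside Gas7, a growth-arrest gene that encodes an actin-binding protein (chr11:67515162-67617605, 26 members). It had 26308 counts (170 CPM) in Sun1_WT and 1560 counts (16.7 CPM) in Sun1_KO tumour-gated nuclei, a log2 ratio of -3.35 (-3.45 to -3.24). Of tumour-gated nuclei, 89.7% in Sun1_WT and 28.4% in Sun1_KO had at least 1 count in the domain, as did 87.2 and 81.8% of myeloid-gated nuclei. All 18 shared member regions were at least 1.5-fold lower, from -4.30 to -0.80. The 3 lowest member regions, ranked by the interval bound nearest 0, were among them, such as chr11:67515162-67516091 with 29.4 and 2.20 CPM and chr11:67532452-67533351 with 12.4 and 0.771 CPM. Among compared regions, an unbroken run of 32 at least 1.5-fold lower, 14 of them no members, reached from chr11:67350085 to 67676774. It thus began before the lower coordinate of the gene (67453257 to 67688992). A weak region within this stretch had too few counts to be compared. The next regions on either side were at -0.35 and -0.29. In myeloid-gated nuclei the domain stood at 1842 and 1823 counts (0.14, 0.01 to 0.28), or at 0.04 (-0.11 to 0.19) by shared regions alone, while these 3 regions were almost closed there, with at most 13 counts each.

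RNA is given in UMIs and in CPM of all UMIs but mitochondrial ones. Gas7 RNA was low in the same nuclei, with 393 UMIs (10.5 CPM) in Sun1_WT and 35 UMIs (1.95 CPM) in Sun1_KO tumour-gated nuclei (-2.41, -2.97 to -1.93). Myeloid-gated nuclei had 76 and 79 UMIs (0.30, -0.17 to 0.78), where no difference was detectable at this depth.

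The chemokine domain of Ccl2, Ccl7 and Ccl11, which encode attractants of monocytes and eosinophils, was also lower (chr11:81998407-82072770, 20 members). It had 15139 counts (97.7 CPM) in Sun1_WT and 3072 (32.9 CPM) in Sun1_KO tumour-gated nuclei, a log2 ratio of -1.57 (-1.65 to -1.49), beside flanks at 0.04. Of its 17 shared member regions, all were below 0 and 15 were at least 1.5-fold lower. Some weakly open regions outside the domain were also low, such as those at -38.15, 45.46 and 104.12 kb from its centre (-1.60, -2.60 and -1.83). Others were not, such as those at 37.62, 142.38 and 147.86 kb (-0.17, -0.34 and 0.62), so the low values were not confined to the domain. The region over the Ccl2 gene (chr11:82035011-82035906) went from 14.4 to 5.06 CPM (-1.51), that over Ccl7 (chr11:82045196-82046086) from 3.22 to 0.782 CPM (-2.03), and the most open region (chr11:82011459-82012379) from 20.7 to 8.84 CPM (-1.23). In myeloid-gated nuclei the domain was at 2699 and 2464 counts (0.03, -0.08 to 0.14), and the region over Ccl2 was at 0.11.

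RNA in this domain did not move together. In tumour-gated nuclei Ccl2 had 3208 and 314 UMIs, or 85.7 and 17.5 CPM (-2.29, -2.46 to -2.13), whereas Ccl7 had 318 and 138 UMIs, or 8.49 and 7.68 CPM (-0.14, -0.44 to 0.15). Both chemokines were far higher in myeloid-gated nuclei, at 445 and 363 CPM for Ccl2 and 517 and 382 CPM for Ccl7. The summed myeloid markers in tumour-gated nuclei are given above, and their part in these values was not tested.

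**Figure D4:**
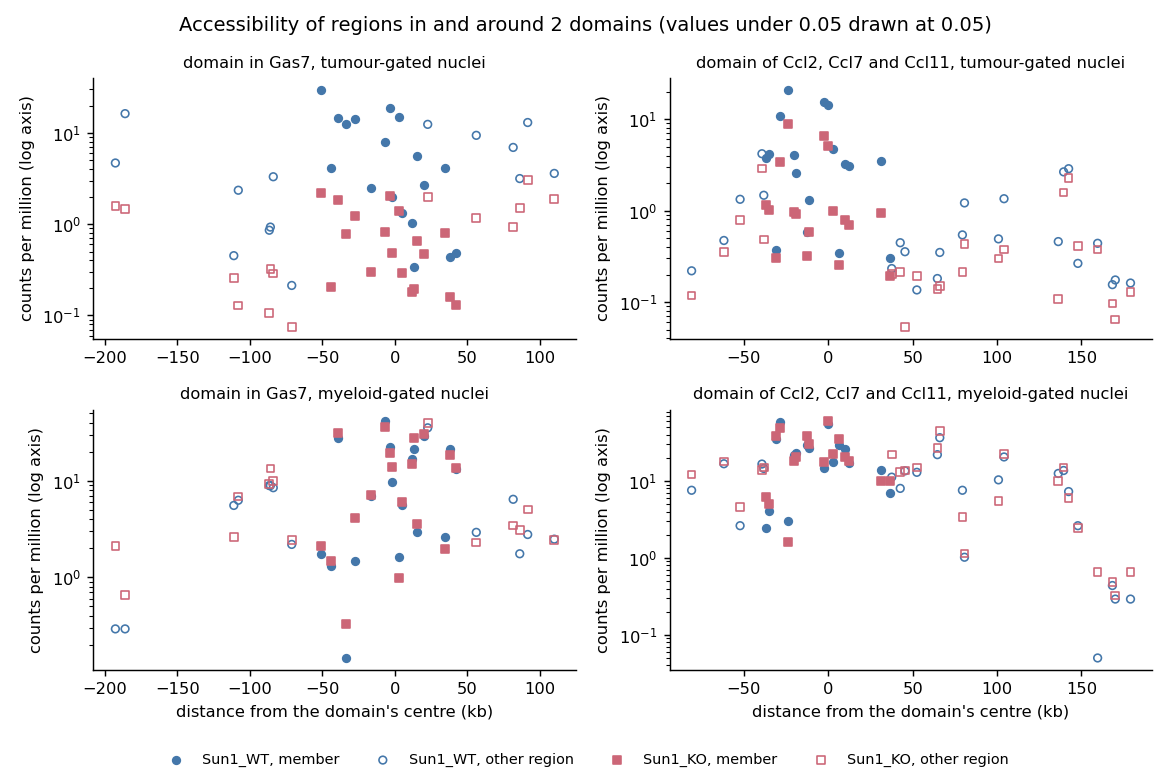
Accessibility in CPM on a log axis against distance from the domain's centre in kb, for shared regions within 200 kb of the domains in Gas7 (left) and of Ccl2, Ccl7 and Ccl11 (right), in tumour-gated (top) and myeloid-gated nuclei (bottom); filled symbols are members, open symbols other regions. In tumour-gated nuclei the Sun1_KO points lie below the Sun1_WT points in all 18 Gas7 and all 17 chemokine member regions, while in myeloid-gated nuclei the points of the 2 libraries lie close together.

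The low domains on chromosome 19 and in Elmo1 were weakly open in tumour-gated nuclei and more open in myeloid-gated ones. A domain with no coding gene on chr19:34382307-34413637, 54.5 kb from the death receptor gene Fas and 60.1 kb from the cholesterol hydroxylase gene Ch25h, had 9.74 and 2.95 CPM (-1.72, -1.99 to -1.46), but -1.18 by shared regions alone. Fas RNA stood at 7.37 and 8.52 CPM there and Ch25h RNA at 1.87 and 3.06 CPM. A domain in Elmo1, which encodes a partner of Rac activators in phagocytosis, had 10.7 and 4.51 CPM (chr13:20124882-20140627, -1.25, -1.47 to -1.03), with flanks at -0.36 and Elmo1 RNA at 27.0 and 14.6 CPM (-0.89, -1.09 to -0.69). The Elmo1 domain was also below 0 in myeloid-gated nuclei (-0.39, -0.75 to -0.05), but at -0.18 (-0.54 to 0.17) by shared regions alone, while the chromosome 19 domain was at 0.13 (-0.14 to 0.40) there. Another domain past 1.5-fold, on chr13:63134614-63155571, was at -0.59. Unlike these, it was more open in tumour-gated than in myeloid-gated nuclei of Sun1_WT, by a log2 ratio of 0.95.

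Higher domains changed less. The only one past 1.5-fold in tumour-gated nuclei lay on chr8:120710896-120728648, 7.71 kb from Irf8, a transcription factor gene of monocytes and dendritic cells. It had 948 counts (6.12 CPM) in Sun1_WT and 1024 (11 CPM) in Sun1_KO, a log2 ratio of 0.84 (0.66 to 1.02), and 5 of its 6 regions were at least 1.5-fold higher. This domain was far more open in myeloid-gated nuclei, by a log2 ratio of 4.34 in Sun1_WT, and stood at 0.31 (0.12 to 0.50) between the genotypes there. Irf8 RNA was at 2.32 and 5.40 CPM in tumour-gated (1.22, 0.78 to 1.65) and 286 and 316 CPM in myeloid-gated nuclei. The summed myeloid markers were likewise higher in Sun1_KO tumour-gated nuclei, at 98.4 against 75.9 CPM, and their part in this result was not tested. Of the 3 regions in Irf8 itself, 2 were at least 1.5-fold higher. With stricter gates on both markers, which held 450 Sun1_WT and 193 Sun1_KO tumour-gated nuclei, the domain was at 0.84. No interval was computed there, and the part of myeloid signal was not tested there either.

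The other 3 high domains named here outside chromosome 8 were open mainly in tumour cells or in both gates. The domain of Sfi1, a centrin-binding protein gene, was at 127 and 178 CPM (chr11:3118741-3181944, 0.48, 0.44 to 0.53), and Sfi1 RNA was at 78.1 and 124 CPM (0.67, 0.59 to 0.75). A domain in Epb41l1, which encodes a membrane-skeleton protein, was at 42.1 and 51.8 CPM (chr2:156453541-156461121, 0.30, 0.22 to 0.37), with RNA at 67.6 and 97.9 CPM (0.53, 0.45 to 0.62). The domain of Lmna, the semaphorin gene Sema4a and the RNA-binding protein gene Mex3a was at 537 and 627 CPM (chr3:88446336-88537178, 0.22, 0.20 to 0.25), beside flanks at 0.18. Lmna RNA went the other way, from 785 to 588 CPM (-0.42, -0.45 to -0.38), while Mex3a RNA was at 11.5 and 20.7 CPM (0.84, 0.64 to 1.04).

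Single member regions outside the low domains that stood highest in Sun1_KO tumour-gated nuclei were weak. The region on chr12:85468453-85469338, in the same domain as the AP-1 gene Fos, had 0.491 and 1.59 CPM (1.69, 1.11 to 2.30), beside 52.6 and 57.2 CPM in myeloid-gated nuclei. A region on chr15:59777149-59778068 had 1.70 and 4.51 CPM (1.41, 1.09 to 1.73). A region in Pik3r1, the gene of a regulatory PI3-kinase subunit, had 2.68 and 6.79 CPM (chr13:101694131-101694976, 1.34, 1.08 to 1.60) and was open in 10.5 and 24.3% of nuclei.

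In myeloid-gated nuclei members stood where all other regions stood. Of the 2996 member regions with 50 or more counts, the median was 0.00 (others 0.00), 176 (5.87%) were at least 1.5-fold higher, beside 5.95% over all, and 189 (6.31%) at least 1.5-fold lower, beside 6.45% over all. The median compared member had 107 and 97 counts there, so single regions were poorly resolved. Among the 341 domains, 2 were higher and 10 lower past 1.5-fold, but the interval of the 2 included 0 and those of 5 of the 10 did.

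By shared regions alone 8 domains were lower. Tumour-gated nuclei of Sun1_WT had all 10 lower domains more open than myeloid-gated ones, by log2 ratios from 1.48 to 4.79, and also both higher domains, by 1.65 and 5.02. The best counted was on chr10:120602852-120632691, 126 kb from Hmga2, with 524 and 244 counts in myeloid-gated nuclei (-0.94, -1.27 to -0.63) and -0.11 in tumour-gated nuclei. Its region chr10:120623946-120624842 had 63 and 14 counts. The domain of the cytochrome b561 gene Cyb561 had 132 and 58 counts (chr11:105936021-105953982, -1.02, -1.71 to -0.38), and a domain with no coding gene between Socs5 and Mcfd2 had 171 and 86 (chr17:87171832-87222374, -0.83, -1.40 to -0.30), but -0.40 by shared regions alone, which is within 1.5-fold. Hmga2 RNA in the myeloid gate, which allowed at most 1 Hmga2 UMI per nucleus, was at 38.1 and 49.4 CPM, and the summed tumour markers were at 76.6 and 71.6 CPM. The part of tumour-cell signal in these values was not tested.

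Higher in Sun1_KO myeloid-gated nuclei were a domain with no coding gene on chr4:133439374-133468698 with 427 and 534 counts (0.48, 0.21 to 0.75), the domain of the ESCRT gene Vps37b with 1007 and 1175 (chr5:124015725-124050965, 0.38, 0.21 to 0.56) and the domain of the sialyltransferase gene St3gal1 with 1818 and 2077 (chr15:67023153-67135278, 0.35, 0.22 to 0.48). By shared regions alone the first was at 0.17 and the St3gal1 domain at 0.20. In tumour-gated nuclei the Vps37b and St3gal1 domains were at -0.15 and -0.12. The highest single member region, chr6:17597675-17598516, had 8 and 97 counts in myeloid-gated nuclei (3.68, 2.33 to 5.71) and 269 and 42 in tumour-gated nuclei (-1.93, -2.69 to -1.28). It was open in 1.73 and 14.1% of myeloid-gated nuclei.

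The sides of member regions by cell type were nearly the same in both libraries. Tumour over myeloid, the median member was at 0.48 in Sun1_WT and 0.44 in Sun1_KO, beside 0.93 and 1.03 for other regions. At least 1.5-fold more open in tumour-gated nuclei were 48.0% of the members in Sun1_WT, beside 54.6% over all compared regions, and 47.9% in Sun1_KO, beside 56.1%. The share more open in myeloid-gated nuclei was 27.7% (24.1% over all) and 28.5% (23.4% over all). Of 5464 member regions compared in both libraries, 2380 were on the tumour side in both, which is 90.6% of those in Sun1_WT and 90.9% of those in Sun1_KO. On the myeloid side 1355 were shared (89.9 and 87.1%), and 28 regions were on opposite sides. Other regions were much the same, with 91.9 and 89.8% on the tumour side and 86.6 and 88.1% on the myeloid side. Of 102286 other regions, 964 were on opposite sides.

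RNA of genes in the domains was compared where a gene had 100 or more UMIs. In tumour-gated nuclei the 716 domain genes had a median log2 ratio of 0.05, beside 0.15 for other genes. Of them 79 (11%) were at least 1.5-fold higher, beside 10.6% over all genes, and 93 (13.0%) at least 1.5-fold lower, beside 7.46%. Short genes made up 66 of the 93: of 256 domain genes under 10 kb, 25.8% were lower, against 15.1% of other genes of that length, while of 167 domain genes over 50 kb 3.59% were, against 2.99%. Among the 66 were 16 clustered histone genes, described below. In myeloid-gated nuclei 330 domain genes had a median of 0.01, with 19 (5.76%) higher, beside 5.22% over all, and 15 (4.55%) lower, beside 4.66%. The mitochondrial share of UMIs was higher in Sun1_KO in both gates, and its part in the RNA values was not tested.

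RNA and openness of the members moved together in few genes. Of the 93 lower genes, 86 had a member region that could be compared. In 6 of these, Gas7, Ccl2, Elmo1, the elastin gene Eln, the retinoid-binding protein gene Crabp2 and the interleukin 1 receptor kinase gene Irak2, the member regions were at least 1.5-fold lower too. The median over the 86 was -0.06, with 65 below 0, and over 76 higher genes it was 0.02, with 42 above 0. The 522 genes with RNA within 1.5-fold had a median of -0.03, with 320 below 0 and 7 at least 1.5-fold lower. The integrin gene Itgb4, with 3128 and 425 UMIs (-1.82, -1.97 to -1.67), had a member region at -0.08. The circadian transcription factor gene Dbp had 1446 and 155 UMIs (-2.16, -2.41 to -1.92) and no member region in its body. Among the highest genes, the zinc-finger gene Hivep3 had 34 and 97 UMIs (2.56, 2.0 to 3.18) and member regions at -0.11, the collagen gene Col15a1 had 98 and 220 (2.22, 1.88 to 2.59) and member regions at -0.24, and Medag had 173 and 358 (2.11, 1.84 to 2.38) and member regions at 0.45. The calcium-binding protein gene Rcn3 and the copine gene Cpne5 had RNA ratios of 1.81 and 1.79 and member regions at -0.02 and -0.40. Across 684 genes, which are not independent replicates, Pearson's r between the 2 ratios was 0.28. Across 337 genes with a member region at the start it was 0.10.

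**Figure D5:**
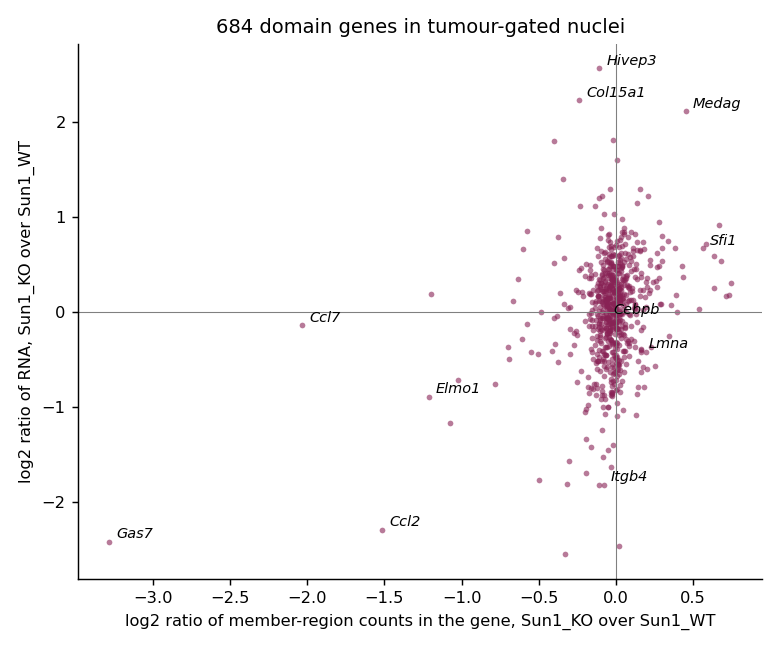
Log2 ratio of RNA (vertical axis) against log2 ratio of accessibility counts summed over the member regions in the gene (horizontal axis), Sun1_KO over Sun1_WT, for 684 domain genes in tumour-gated nuclei. Gas7, Ccl2 and Elmo1 are low on both axes, while most genes with RNA changes, such as Hivep3 and Itgb4, lie near 0 on the horizontal axis.

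Gene lists differed in how many members lay in the domains. Of 16 AP-1 and immediate early genes considered, which answer growth and stress signals within minutes, 7 lay in a domain, as did 6 of 20 growth and tumour regulators, 2 of 19 myeloid genes (Cebpb and Ccl2), 2 of 14 nuclear envelope genes (Lmna and the nesprin gene Syne3), 0 of 39 Hox genes and 0 of 56 protocadherins. For comparison 4.40% of coding genes did. The 7 AP-1 genes had a median of 0.19 in tumour-gated nuclei, 2 of them past 1.5-fold upwards (10.6% over all genes) and 0 downwards (7.46%). In myeloid-gated nuclei the 6 with enough UMIs had a median of -0.27 and none passed 1.5-fold. Fos had 261 and 306 UMIs (1.29, 1.05 to 1.53) and Fosb 576 and 563 (1.03, 0.86 to 1.20), while their member regions were at -0.04 and -0.08. Jund was at 0.31 and Jun at -0.22. None of the 6 growth regulators passed 1.5-fold: the cyclin gene Ccnd1 was at 0.16, the transcription factor gene Runx1 at 0.29, the TGF-beta mediator gene Smad3 at 0.36 and the survival gene Bcl2l1 at -0.10. Syne3 was at -0.04.

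Clustered histone genes, which supply chromatin protein during S phase, made up the largest group in the domains, with 30 of 66 genes, all with a member peak. Of the 20 with enough UMIs in tumour-gated nuclei, 16 stood past 1.5-fold downwards and 1 upwards around a median of -0.99, where 7.46% of all genes were lower and the median domain gene stood at 0.05. Hist1h2ae had 2155 and 411 UMIs (-1.33, -1.49 to -1.18), Hist1h3c 850 and 131 (-1.63, -1.91 to -1.37) and Hist1h1d 844 and 205 (-0.98, -1.21 to -0.76), while Hist2h2aa1 had 178 and 133 (0.64, 0.30 to 0.97). Many of these genes are near-identical, so single values are uncertain. Openness changed far less: the member regions at Hist1h2ae stood at -0.19, at Hist1h3c at -0.03 and at Hist2h2aa1 at 0.15.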

How the data were processed

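The members and lists were chosen with earlier results of these data known. The deposited tables hold counts, made by the authors against mm10: UMIs per gene and nucleus, and counts per peak and nucleus, with peaks called separately per library (the peak names differ). Tools named in the submitters' processing notes are Signac, Seurat, Cell Ranger ARC, Cell Ranger and FastQC, with no version. A table of the authors' own comparison was not used. The Sun1_WT library held 3455 nuclei with 227006096 accessibility counts in 127147 peaks and 53707675 UMIs, and the Sun1_KO library 2404 nuclei with 183750142 counts in 134365 peaks and 35471291 UMIs.

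Nuclei below 500 UMIs or 300 genes, or above 20% mitochondrial UMIs, were left out (3345 and 2172 stayed). Tumour-gated nuclei had 2 or more Hmga2 UMIs and 2 or more tumour markers, no Ptprc UMI and under 500 CPM of myeloid markers. Myeloid-gated nuclei had 4 or more myeloid markers, at least 2000 CPM of them and at most 1 Hmga2 UMI. Both gates allowed at most 1 lymphocyte and 1 endothelial UMI. No doublet caller was run. Peaks overlapping by 1 bp or more were joined to regions (109688 shared autosomal ones), and counts were summed per gate and scaled by the total of these regions. RNA was scaled by all UMIs without mitochondrial genes. Ratios used a pseudocount of 0.5, regions with 50 or more counts and genes with 100 or more UMIs. Intervals are exact conditional binomial ones. Since 75.46% and 74.98% of accessibility values were even, counts were halved for them. Genes were placed by RefSeq GRCm38.p6, which matched 82.6% of 32285 names.

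Named were the 5 domains with most members, the 5 highest and 5 lowest domains in tumour-gated and 3 and 3 in myeloid-gated nuclei, the 3 highest and 3 lowest member regions in tumour-gated and 2 and 2 in myeloid-gated nuclei, genes of those domains by UMIs, and the 5 highest and 5 lowest domain genes by RNA, all ranked by the interval bound nearest 0. Some of these items are not reported here. Fas, Ch25h, Irf8, Hmga2, Socs5 and Mcfd2 are the neighbouring coding genes, chosen after their values were seen, as were the run of low regions around Gas7, the Crabp2, Eln and Irak2 genes and the chromosome 8 stretch. The steps were tested on simulated data, and 16 planned and 4 added alternatives were run. Work was done with Python 3.11.15, numpy 2.4.6, pandas 2.3.3, scipy 1.17.1 and matplotlib 3.10.9.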

Additional observations from a re-analysis of the deposited data

Results flagged for a closer look

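In 3 named domains the log2 ratio of Sun1_KO over Sun1_WT had opposite signs in tumour-gated and myeloid-gated nuclei, with the intervals on opposite sides of 0 when each library's own peaks were summed. The difference between the gates was not tested, since each gate had 1 library per genotype. The domain in Gas7 on chromosome 11 was at -3.35 in tumour-gated and 0.14 in myeloid-gated nuclei, but by shared regions alone the latter was 0.04 (-0.11 to 0.19), which includes 0. The domain of St3gal1 on chromosome 15 was at -0.12 and 0.35, and the domain of Vps37b on chromosome 5 at -0.15 and 0.38. By shared regions alone these were -0.22 and 0.20, and -0.16 and 0.27.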

How the results depend on the processing

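No paired analysis was possible because each genotype had 1 library. In tumour-gated nuclei the members' median (-0.04) lay below that of other regions in each alternative run except 30 or more neighbours. There it was 0.0536, with 3 regions higher (3.16%, beside 7.64% over all) and 5 lower (5.26%, beside 5.35%) past 1.5-fold. Myeloid-gated nuclei had 0.11 there, with 2 higher (8%, beside 5.95%) and 1 lower (4%, beside 6.45%). With 15 or more neighbours the tumour-gated median was -0.0267, with 808 higher (3.66%, beside 7.64% over all) and 1296 lower (5.87%, beside 5.35%). Myeloid-gated nuclei then had 658 higher (5.76%, beside 5.95%) and 757 lower (6.63%, beside 6.45%). With density counted in Sun1_KO the tumour-gated median was -0.029, with 218 higher (3.29%, beside 7.64%). More or fewer regions entered these counts. Setting the median of all regions to 0 gave -0.058, and scaling by all peaks gave a myeloid median of -0.055. Stricter gates gave 250 regions higher in tumour-gated nuclei (5.22%, beside 10.7% over all). They also put the domain on chromosome 4 from 133439374 at -0.00669 and that on chromosome 8 from 70502823 at 0.00202 in tumour-gated nuclei, opposite to 0.14 and -0.02, and the cause was not tested. Scoring nuclei as open or not left 166 regions lower in tumour-gated nuclei (3.06%, beside 2.99% over all). In myeloid-gated nuclei it left 44 higher (1.94%, beside 2.41%) and 54 lower (2.38%, beside 2.15%). In myeloid-gated nuclei a minimum of 20 counts gave 351 higher (9.12%, beside 9.81% over all) and 405 lower regions (10.5%, beside 11.5%). A minimum of 200 counts gave 18 (1.17%, beside 1.45%) and 32 (2.09%, beside 1.31%). A minimum of 30 UMIs gave 52 higher and 42 lower genes, and the share over all genes was not computed there. Of 112 alternative values for the summary medians and counts, 87 stayed close to the main value. A median was close if it lay within the uncertainty range of the main median. For member regions in tumour-gated nuclei this range was -0.044 to -0.032, and it is not the interquartile range of the regions. A count was close if it moved by less than 1.5 times. The chromosome 8 stretch, the Gas7 and chemokine domains and the histone genes were left out in alternatives chosen after seeing the data, as were stricter gates for named domains, and leaving them out moved no median or count of calls beyond these limits. Depth limits the myeloid gate most: 2996 of 5533 member regions reached 50 counts.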
